A study of Rattus norvegicus with 4 samples.

Results

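Vehicle-treated INS-1 cells were examined at 2 h and at 16 h, which are 2 of the 4 samples of the series, chosen by their labels alone. INS-1 is a line of insulin-secreting cells from an insulinoma of the inbred NEDH rat, grown here in RPMI medium with 10% serum. Both samples received only the DMSO vehicle, and the remaining 2 samples, not used here, received forskolin at 10 µM in DMSO for the same times. Their total RNA was hybridized to Affymetrix rat gene 1.0 ST arrays, and each time point has 1 array. All values below are the deposited gene-level log2 signals. With 1 array a side no difference has a replicate check, so genes are described by size and no test was made. Time in vehicle, culture and array cannot be told apart in this design.

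Pancreatic beta cells make insulin as a precursor, cleave it with prohormone convertases in dense-core granules, and release it when glucose metabolism closes ATP-sensitive potassium channels and calcium enters through voltage-gated channels. The identity of the cell is held by a set of transcription factors that bind short elements upstream of the insulin genes. Rats and mice carry a pair of insulin genes, Ins1 and Ins2, and INS-1 cells are widely used because they keep both active and still respond to glucose.

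Of 29214 probe sets, 18834 genes were named, and each is shown by its brightest probe set. Signal has no true zero, so a gene's level was set against the 1153 negative control probe sets of the array. A gene above the 95th percentile of these controls on both arrays (6.52 at 2 h and 6.65 at 16 h) was called above controls. This held for 4844 genes, 25.7% of those named. A gene at or below the 75th percentile on both arrays (4.47 and 4.44) was called at control level, which held for 9001 genes or 47.8%. The remaining 4989 lay between. Signals of different probe sets also depend on how well each probe binds, so the ranks below describe array signal and not molecules per cell.

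The brightest basal signals in INS-1 cells came from a translation factor, insulin, mitochondrial transcripts, chaperones and ribosomal proteins. Eef1a1, the elongation factor that brings aminoacyl-tRNA to the ribosome, ranked first at 13.36 and 13.34 (2 h and 16 h throughout, unless stated). Ins1 ranked second, at 13.23 and 13.32, and COX1, the mitochondrially encoded subunit of cytochrome oxidase, was at rank 3 with 13.14 and 13.39. Gapdh followed at 13.01 and 12.96, and Hspa8, a constitutive chaperone, at 12.98 and 12.88. Chaperones of the secretory pathway were also among the first 20, with Hspa5 (BiP) at 12.62 and 12.74 and Hsp90b1 (GRP94) at 12.44 and 12.35. The cytosolic chaperone Hsp90ab1 read 12.38 and 12.28. Ribosomal proteins in the first 20 were Rps3 (12.84 and 12.84), Rpl21 (12.84 and 12.70), Rps4x (12.43 and 12.46) and Rps2 (12.23 and 12.33). The mitochondrial genes COX2 (12.60 and 12.92) and ND4L (12.32 and 12.64) were there too. The RNA-binding protein Hnrnpa1 read 12.48 and 12.41 and gamma-actin, Actg1, 12.48 and 12.33. Tm4sf4, a tetraspanin-like membrane protein, ranked 20th at 12.25 and 12.29.

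Other entries among the first 20 carry names that the array itself puts in doubt. LOC310926 (12.87 and 12.93) and the brightest probe set listed as Ptprs (12.41 and 12.65) have probe set numbers that lie among those of the mitochondrial genome. A second Ptprs probe set, annotated to the full mRNA of this receptor tyrosine phosphatase, read only 8.23 and 7.69, and its difference had the opposite sign. The same holds for Prkaa2, a catalytic subunit of the energy sensor AMPK, whose probe set among the mitochondrial ones read 11.50 and 12.14 while its other probe set read 6.73 and 6.37. RGD1560826, annotated as similar to Gapdh, read 12.29 and 12.34, and Gapdh itself has 33 probe sets on the array. Signals of such near-identical copies, ribosomal proteins included, may be shared between them.

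Ins2 ranked 23rd, at 12.15 and 12.31. The upstream sequences of the insulin genes are shown beside those of Iapp, which encodes the amyloid polypeptide stored with insulin, and Gcg, the glucagon gene, because these 4 hormone genes were all bright in the same cells. Each run holds the 250 bases before the annotated start in RefSeq (GRCr8), written 5′ to 3′ in the direction of the gene: Ins1 at chr1:261185869-261186118 (plus strand), Ins2 at chr1:207273806-207274055 (minus strand), Iapp at chr4:176967847-176968096 (plus strand) and Gcg at chr3:67531534-67531783 (minus strand). Capitals mark matches, on either strand, to the insulin E element GCCATCTG (bound by Neurod1 with its E-protein partners), the A elements CTAATTAC and CTTAATGG (bound by Pdx1), the core of the C element CTTCAGCC (bound by Mafa), the cAMP response-like element TGACGTC, and TATAAA.
Ins1: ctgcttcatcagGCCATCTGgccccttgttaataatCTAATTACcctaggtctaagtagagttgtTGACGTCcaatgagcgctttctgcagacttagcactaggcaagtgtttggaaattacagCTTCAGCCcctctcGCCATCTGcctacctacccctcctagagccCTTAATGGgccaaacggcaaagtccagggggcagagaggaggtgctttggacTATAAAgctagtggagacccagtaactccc
Ins2: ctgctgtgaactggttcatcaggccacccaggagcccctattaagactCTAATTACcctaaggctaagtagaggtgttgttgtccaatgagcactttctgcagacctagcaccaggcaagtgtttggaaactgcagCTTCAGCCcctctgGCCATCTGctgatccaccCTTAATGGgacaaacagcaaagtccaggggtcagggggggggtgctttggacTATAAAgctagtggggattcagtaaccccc
Iapp: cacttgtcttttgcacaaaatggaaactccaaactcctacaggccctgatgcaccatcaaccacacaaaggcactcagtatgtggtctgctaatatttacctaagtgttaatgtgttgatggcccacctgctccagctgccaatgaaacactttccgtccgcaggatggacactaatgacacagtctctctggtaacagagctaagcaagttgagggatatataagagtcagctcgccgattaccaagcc
Gcg: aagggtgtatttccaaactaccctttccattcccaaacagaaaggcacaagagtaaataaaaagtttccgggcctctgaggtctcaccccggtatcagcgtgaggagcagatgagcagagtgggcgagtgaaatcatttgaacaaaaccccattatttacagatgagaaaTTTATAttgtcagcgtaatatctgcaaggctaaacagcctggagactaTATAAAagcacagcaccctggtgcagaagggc
The Ins1 and Ins2 windows shared the A, C, E and TATA matches in the same order. In Ins1 the E element matched at 238 and again at 112 bases before the start, and TGACGTC at 185 bases. Ins2 had a single E match at 100 bases and none to TGACGTC. In both genes CTTAATGG began 82 bases and TATAAA 30 bases before the start. No match overlapped another. Among 33469 annotated rat promoters of the same length, 0.998% held the E element, 0.388% CTAATTAC, 0.4% CTTAATGG, 1.66% the C element core, 2.8% TGACGTC and 12.9% TATAAA. The Iapp window held none of these letters and the Gcg window only TATAAA, in 2 places, which says nothing about which factors act there.

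Beta-cell markers were mostly bright. Over all named genes 25.7% were above controls and 47.8% at control level, and the counts for each marker list stand beside those shares. Of 15 markers, 13 had a named probe set and 10 of these were above controls, with 2 between and 1 at control level. Against the insulin genes, Iapp read 11.24 and 11.56, the glucose transporter gene Slc2a2 (GLUT2) 11.68 and 11.43, and Slc30a8, the granule zinc transporter, 11.82 and 11.78. The gap junction gene Gjd2 (7.37 and 7.57) and the oxidoreductase Ero1b (7.26 and 7.42) were lower. Among factors, Nkx2-2 read 8.17 and 7.66 and Mafa 6.64 and 6.72, just above the controls. Nkx6-1 lay between, at 5.43 and 4.87, as did the incretin receptor Glp1r at 6.88 and 6.47. Ucn3, a peptide of mature beta cells, was at control level (3.08 and 2.99). Pdx1 and G6pc2 were not analysed here.

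INS-1 cells also gave strong signal for alpha-cell products but not for most alpha-cell factors. Gcg, the proglucagon gene, ranked 45th at 11.76 and 11.95, and Gc, a vitamin D-binding protein made by alpha cells, 57th at 11.78 and 11.81. These were the only 2 of 8 alpha-cell markers above controls. Another 3 lay between, among them the alpha-cell factor Irx2 at 4.55 and 4.34. Irx1 (3.11 and 2.69), Pou3f4 (2.25 and 2.41) and Ttr (2.45 and 2.44) were at control level. No marker of delta cells (0 of 4) and none of pancreatic polypeptide and epsilon cells (0 of 3) was above controls, and every one of these 7 genes was at control level. Lists this short carry little weight beside the 25.7% above controls and 47.8% at control level among all named genes. Sst, which encodes somatostatin, read 3.28 and 3.38, Hhex 2.37 and 2.04, Rbp4 2.61 and 2.53 and Ghsr 2.92 and 2.98. Ppy read 3.74 and 3.70, Pyy 2.92 and 2.90 and Ghrl 2.48 and 3.29.

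Among 15 other peptide hormones, Npy (9.06 and 9.14) and Cck (7.83 and 8.0) were above controls. Sct (6.18 and 5.79), Gast (5.13 and 5.21) and Tac1 (4.42 and 4.55) lay between, and the other 10, such as Vip (2.12 and 2.03), Pomc (3.48 and 3.55) and Gip (2.85 and 3.20), were at control level. General neuroendocrine genes were bright throughout: 15 of 15 with a probe set were above controls, while Insm1 was not analysed here. The carboxypeptidase gene Cpe read 11.90 and 11.81, chromogranin A, Chga, 11.58 and 11.30, and the convertase gene Pcsk2 11.50 and 11.43. Pcsk1, the other prohormone convertase, read 9.07 and 8.93. Scg5 (11.26 and 11.16), Chgb (11.04 and 10.83), Scg2 (10.95 and 10.43) and Scg3 (9.30 and 9.06) are further granule proteins. Syp, a vesicle membrane protein, read 10.13 and 10.25 and the SNARE gene Snap25 8.83 and 8.69. Endocrine factors in this list were Pax6 (10.55 and 10.31), Neurod1 (9.33 and 8.99), Isl1 (9.28 and 9.20) and Rfx6 (8.77 and 8.64), and the granule phosphatase-like gene Ptprn read 9.44 and 9.13.

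**Figure D1:**
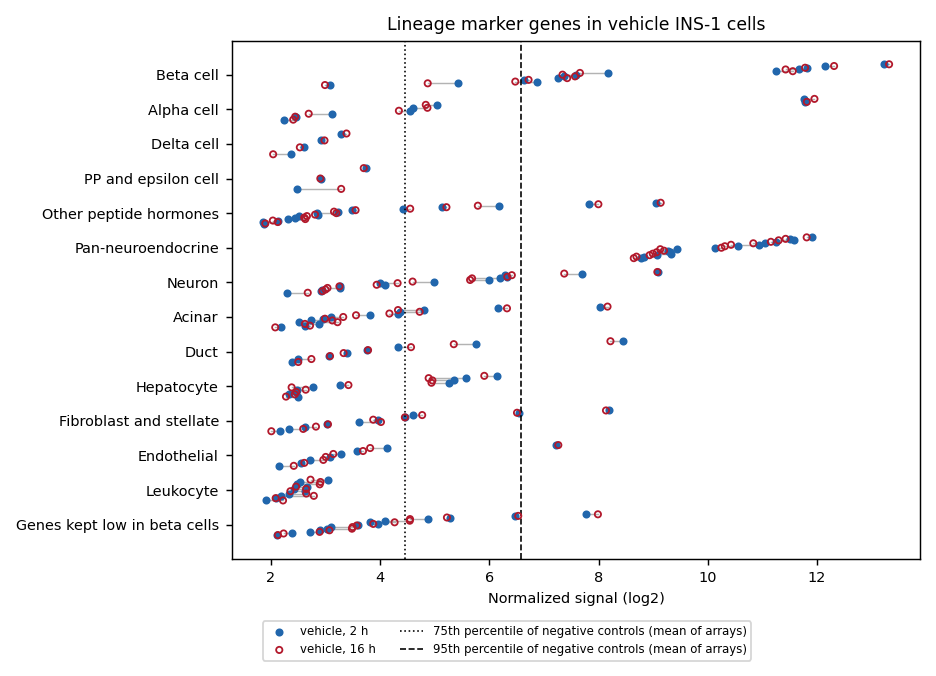
Normalized log2 signal (x axis) of every lineage marker gene with a named probe set, by marker list (y axis), at 2 h (filled) and 16 h (open), with a grey line joining the same gene. The dotted and dashed lines are the 75th and 95th percentiles of the negative controls, averaged over the arrays. All 15 neuroendocrine markers lie right of the dashed line and all 10 leukocyte markers left of the dotted one.

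Markers of cells outside the endocrine lineage were scarce. Leukocyte genes were at control level in 10 of 10 cases, from Itgam (1.91 and 2.22) to Cd14 (3.04 and 2.72). They included Ptprc (2.09 and 2.09), Cd68 (2.63 and 2.36), Csf1r (2.41 and 2.64), Cd3e (2.33 and 2.65), Lyz2 (2.54 and 2.91), Tyrobp (2.47 and 2.89) and Laptm5 (2.66 and 2.46). Of 8 endothelial genes, Esam, an adhesion molecule, was above controls at 7.22 and 7.26, and the other 7 were at control level, among them Pecam1 (2.55 and 2.61), Cdh5 (2.71 and 2.96) and Vwf (3.08 and 3.0). Of 10 fibroblast and stellate genes only Thy1 was above controls (8.19 and 8.14). The smooth muscle actin Acta2 (6.54 and 6.51) and the collagens Col1a1 (4.60 and 4.77) and Col1a2 (4.46 and 4.45) lay between, and Vim, the intermediate filament of mesenchymal cells, was at control level at 2.61 and 2.82.

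Exocrine genes were mostly low. Of 13 acinar markers 1 was above controls. Ctrb1, the chymotrypsinogen gene, lay between at 6.16 and 6.32 with the factors Bhlha15 (4.8 and 4.33) and Rbpjl (4.37 and 4.72). The other 9 were at control level, including Prss1 (2.96 and 2.99), Amy2a3 (2.18 and 2.08), Cpa1 (2.51 and 3.22) and Ptf1a (2.88 and 2.62). Of 8 duct markers the keratin Krt7 was above controls (8.46 and 8.22), Car2 (5.75 and 5.35) and Sox9 (4.33 and 4.56) lay between, and 5, Krt19 (3.76 and 3.78) among them, were at control level. No hepatocyte marker was above controls (0 of 10). Hnf4a, a factor also used by beta cells, read 6.14 and 5.91, Serpina1 5.57 and 4.89, Foxa3 5.34 and 4.96 and Fgb 5.25 and 4.94, and Alb (2.77 and 2.38) was among the 6 at control level.

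Neuronal genes were mixed, and their share at control level was near the 47.8% of all named genes. Gap43, a growth cone protein, read 9.10 and 9.08 and Stmn2, a microtubule regulator, 7.71 and 7.37, the only 2 of 14 above controls. Tubb3 (6.28 and 6.41), Map2 (6.33 and 6.33), Gad1 (6.19 and 5.68), Syn1 (5.99 and 5.65) and Rbfox3 (4.99 and 4.59) lay between. The other 7 were at control level, among them Nefl (4.0 and 4.32), Slc17a6 (2.30 and 2.67) and Th (3.27 and 3.04).

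A further list held 14 genes that mature beta cells are known to keep low. Oat, ornithine aminotransferase, was the 1 above controls, at 7.78 and 7.99. Igfbp4 (6.46 and 6.53), Slc16a1, the monocarboxylate transporter (5.28 and 5.22), Acot7 (4.87 and 4.55) and Ldha, lactate dehydrogenase A (4.09 and 4.54), lay between. The other 9 were at control level, including the low-Km hexokinases Hk1 (2.90 and 3.07) and Hk2 (2.71 and 2.89) and the neuronal gene repressor Rest (2.12 and 2.13).

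The microRNA best known from islets, miR-375, could not be read from these arrays as a mature RNA. Its mature strand in RefSeq (GRCr8, chr9:83906591-83906612, minus strand) is shown with the seed, bases 2 to 8, in capitals.
rno-miR-375-3p: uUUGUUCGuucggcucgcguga
The array probes the longer precursor, and the mir-375 precursor probe set read 4.07 and 4.15, at control level. Of 246 precursors named from miRBase, 2 were above controls, rno-mir-207 (7.76 and 7.91) and rno-mir-598 (7.16 and 7.21), and 205 were at control level. Those readings bear on precursors and not on the mature microRNA.

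The vehicle arrays were alike. Across all 29214 probe sets their signals correlated at r = 0.9926, a description across probe sets that share RNA, array design and normalization. For differences, genes with a mean signal above 4.455, the mean of the 75th percentiles of the controls, were compared, which left 9626 genes. A dim gene can pass this filter through only the array on which it is higher. The SD of the 16 h minus 2 h difference was 0.25 log2 units over these genes, and 97.0% differed by less than 1.5-fold. The median difference was -0.07, and 62.4% of compared genes read lower at 16 h and 37.4% higher. By size, 8 genes (0.0831%) exceeded their 2 h signal at least 2-fold at 16 h, and 3 (0.0312%) lay at least 2-fold below it. After a cyclic loess of the arrays, or after centring on the median of all compared genes, the split was 8 and 0. At 1.5-fold, 69 genes (0.717%) were higher and 217 (2.25%) lower. This split was 100 and 129 after cyclic loess and 124 and 105 after centring, so the excess of lower genes depended on the scaling. For the 424 genes with 2 distinct probe sets above the filter, the differences of the pair had the same sign in 71.7%, and lay 0.11 log2 units apart at the median. The 9 bacterial hybridization spikes, which are added to the sample and not made by the cells, all read higher at 16 h, by a median of 0.46. Of the 4 poly-A spikes 3 read lower, at -0.14 to -0.27, and 1 higher, at 0.20. Among the 276 negative controls that passed the filter 7 were past 2-fold upward and 14 downward. This is a far larger share than the 8 and 3 of 9626 genes. The SD of the difference was 0.59 over these controls, against 0.25 over the compared genes. The part of these array-wide shifts in the results below was not tested.

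**Figure D2:**
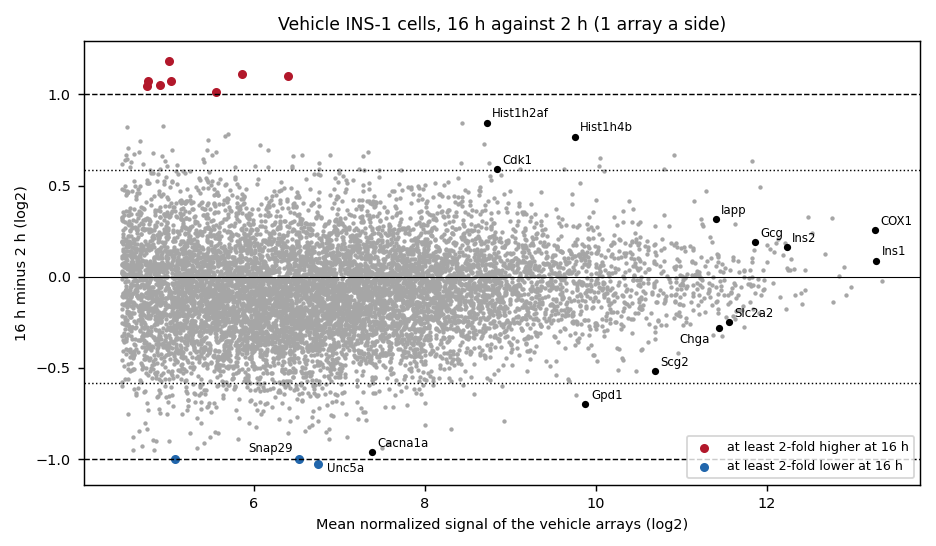
Difference 16 h minus 2 h (y axis, log2) against mean signal (x axis, log2) for the 9626 compared genes. Dashed lines mark 2-fold and dotted lines 1.5-fold. The 8 genes past 2-fold upward (red) and the 3 downward (blue) sit at mean signals below 7, while Ins1, Ins2, Gcg and Iapp sit at the bright end between 0 and 0.32.

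The 8 genes past 2-fold on the higher side were dim and mostly members of repeated families. None was above controls. Of these names, 5 are annotated only as similar to a serine/threonine kinase: RGD1560825 (4.42 and 5.60, a difference of 1.18), RGD1559699 (4.23 and 5.30, 1.07), RGD1560808 (4.37 and 5.43, 1.05), RGD1564858 (4.23 and 5.27, 1.05) and RGD1561339 (5.05 and 6.06, 1.01). At 2 h all of these but RGD1561339 read below the controls' 75th percentile of 4.47, and they passed the filter only through their 16 h signal. All 4 probe sets of RGD1560825 read higher at 16 h, by 0.86 to 1.18, but the probe set at 0.86 was at control level (2.84 and 3.69). LOC501799, annotated as similar to the chromatin protein Cbx3, read 5.85 and 6.95 (1.1), and its 5 probe sets differed by 0.23 to 1.23. RGD1565550, similar to the double homeobox gene DUX4, read 5.30 and 6.41 (1.11). Its dimmer probe set differed by -0.30 the other way, but at control level (2.84 and 2.54). Fancd2osl1 read 4.49 and 5.57 (1.07). Copies of such families may bind the same probes, so these 8 entries cannot be taken as 8 separate genes.

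The next genes on that side included brighter histone entries, whose copies are nearly identical, and dimmer entries that were not above controls. Histone genes stood there, with Hist1h2af (8.30 and 9.15, 0.84), LOC679840, similar to germinal histone H4 (8.01 and 8.86, 0.85), and Hist1h4b (9.37 and 10.13, 0.77). Gtf2f2, a subunit of the general transcription factor TFIIF, read 4.53 and 5.36 (0.83) and LOC294844, similar to Gapdh, 4.11 and 4.93 (0.82). RGD1560135, a second double homeobox entry, read 5.31 and 6.09 (0.78) and Tex264, a receptor for autophagy of the endoplasmic reticulum, 5.28 and 6.05 (0.77).

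On the lower side, none of the 3 genes past 2-fold was above controls on both arrays. Unc5a, a netrin receptor, read 7.27 at 2 h and 6.24 at 16 h, a difference of -1.03. Snap29, a SNARE protein of membrane fusion, read 7.03 and 6.02 (-1.0), and Pde1b, a calmodulin-dependent cyclic nucleotide phosphodiesterase, 5.58 and 4.58 (-1.0). Each has 1 probe set, and each lost the 2-fold call after cyclic loess or centring. Just under 2-fold came Cacna1a, the pore of the P/Q-type calcium channel, at 7.86 and 6.90 (-0.96), Sufu, an inhibitor of Hedgehog signalling, at 5.06 and 4.11 (-0.95), and Pkp4, a plakophilin of cell junctions, at 5.31 and 4.36 (-0.95). RGD1560175 (-0.94), LOC679811 (-0.94) and Hspa12a (-0.93) followed. Cdk5r1, the p35 activator of Cdk5, read 5.88 and 4.97 (-0.91), Faim2, an inhibitor of Fas-driven death, 8.03 and 7.12 (-0.91), and Chd8, a chromatin remodeller, 5.46 and 4.56 (-0.90). Mapkbp1 had a difference of -0.90 in its brighter probe set and 0.54 in its dimmer probe set, which was at control level (3.74 and 4.28). Pde7b, a cAMP phosphodiesterase (5.27 and 4.37, -0.90), and the interleukin receptor Il17rb (6.26 and 5.37, -0.89) completed the 15 lowest.

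Across the 36 gene classes described below, 706 member genes were compared. None was past 2-fold in either direction, and at 1.5-fold 5 (0.708%) lay above and 11 (1.56%) below their 2 h signal. These shares are near or under the 0.717% and 2.25% of all compared genes. Of the 35 classes with at least 5 compared members, 24 had a median below 0, beside the median of -0.07 over all compared genes. Of all compared genes 62.4% read lower and 37.4% higher, and the class counts below stand beside those shares. Centring on that median left 16 below 0 and cyclic loess 19.

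**Figure D3:**
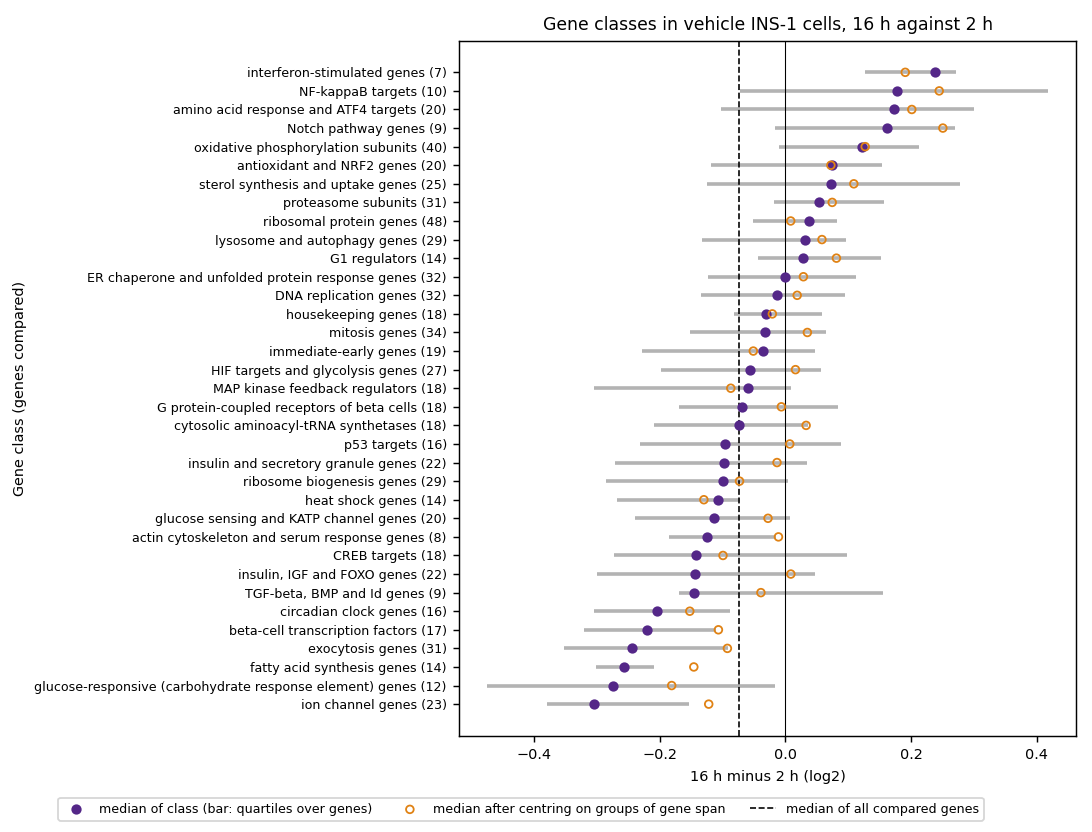
Median difference 16 h minus 2 h (x axis, log2) for each of the 35 gene classes (y axis, genes compared in brackets), with bars for the quartiles over genes. Open circles show the median after centring each gene on its group of gene span, and the dashed line is the median of all compared genes, -0.07. By the filled points, ion channel genes lie lowest at -0.30 and interferon-stimulated genes highest at 0.24, and neither holds by the open circles.

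Ins1, Ins2, Iapp and Gcg read slightly higher at 16 h, and the insulin and granule genes as a class stood near all genes. The differences were 0.09 for Ins1, 0.16 for Ins2, 0.32 for Iapp and 0.19 for Gcg. Of 22 compared insulin and granule genes, 7 read higher and 15 lower, with a median of -0.10, beside 62.4% lower and a median of -0.07 over all compared genes. The class median was -0.02 after centring on the median of all genes and -0.01 after centring on gene span. Scg2, secretogranin II, differed by -0.52, Ptprn2 by -0.40 (8.87 and 8.47), Vamp2, the vesicle SNARE, by -0.40 (6.43 and 6.03) and Nucb2, the precursor of nesfatin, by -0.40 (10.73 and 10.34). Chga differed by -0.28 and Chgb by -0.21, while Pam, which amidates peptides, differed by 0.06 and Pcsk1n and Ica1 by 0.03 each. Sct, the secretin gene, is a hormone gene outside this list, chosen after its value was seen, and differed by -0.39. The convertases were nearer to 0, at -0.13 for Pcsk1 and -0.07 for Pcsk2, and Cpe at -0.09. No member reached 1.5-fold.

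Beta-cell transcription factors read lower in 16 of 17 compared cases, with a median of -0.22. Foxo1, a forkhead factor restrained by insulin signalling, read 6.43 and 5.81 (-0.62) and was the 1 past 1.5-fold. Nkx6-1 differed by -0.56, Nkx2-2 by -0.51 and Neurod1 by -0.34. Mafa was the exception, at 0.08. Pax6 differed by -0.23 and Isl1 by -0.08. Neuroendocrine markers as a list read lower in 14 of 15 cases, with a median of -0.14, and Syp was the exception at 0.12. Most of these markers are also in the beta-cell factor or granule lists, so they are not a separate set. Over all compared genes 62.4% read lower, and after centring on gene span the median of the neuroendocrine list was -0.05.

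Exocytosis genes read lower in 27 of 31 cases, with a median of -0.24, and none reached 1.5-fold. Rab27a, the small GTPase that tethers insulin granules, read 5.12 and 4.58 (-0.54), Sytl5 5.40 and 4.88 (-0.52), Syt3, a synaptotagmin, 5.34 and 4.93 (-0.42) and Rab3b 6.94 and 6.55 (-0.40). The 4 on the higher side were Vamp3, Napa, Sv2a and Sv2c, at 0.02 to 0.23. Ion channel genes had a median of -0.30, with 20 of 23 lower. It was the lowest of the classes as reported, but carbohydrate-response genes were lower after cyclic loess (-0.25 against -0.23) and after centring on gene span (-0.18 against -0.12). Beside Cacna1a, the calcium channel pores Cacna1c (L-type, 5.65 and 4.97, -0.69) and Cacna1h (T-type, 7.01 and 6.4, -0.61) were past 1.5-fold. The delayed rectifier potassium channel gene Kcnb2 read lower too, though dim, at 5.39 and 4.95 (-0.45).

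Glucose sensing genes differed little as a class, with 14 of 20 lower and a median of -0.11. That median was -0.04 after centring on the median of all genes and -0.03 after centring on gene span. Slc2a1, the ubiquitous glucose transporter GLUT1, read 7.32 and 7.63 (0.31), while Slc2a2 differed by -0.25. Abcc8, the sulfonylurea receptor of the ATP-sensitive potassium channel, read 8.74 and 8.42 (-0.32), whereas its channel partner Kcnj11 read 8.97 and 8.98. Mpc1, a pyruvate carrier subunit, differed by -0.28. Genes induced through the carbohydrate response element were lower in 9 of 12 cases with a median of -0.27. Acaca, acetyl-CoA carboxylase, read 7.21 and 6.51 (-0.70) and Gpd1, glycerol-3-phosphate dehydrogenase, 10.23 and 9.53 (-0.70). Fasn, fatty acid synthase, differed by -0.56 (7.67 and 7.11) and Pklr, the liver-type pyruvate kinase, by -0.44 (9.17 and 8.73). Txnip, the thioredoxin-interacting protein that is strongly glucose-induced in beta cells, read 10.05 and 10.01 (-0.03), and its relative Arrdc4 8.17 and 7.95 (-0.22). Khk, ketohexokinase, read higher at 4.78 and 5.21 (0.43).

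Fatty acid synthesis genes, which share Acaca, Fasn, Acly and Mlxipl with that class, read lower in 13 of 14 cases, with a median of -0.26. Gpam, which starts glycerolipid synthesis, differed by -0.48 (5.66 and 5.18) and Acsl1 by -0.31 (7.58 and 7.27). Sterol genes did not follow them: 15 of 25 were higher, with a median of 0.07. Ebp, a sterol isomerase, read 7.04 and 7.51 (0.47), Tm7sf2 6.14 and 6.52 (0.38) and Mvk 6.56 and 6.92 (0.36), while Insig2 differed by 0.34. Hmgcs1 differed by -0.25 (8.07 and 7.82). Of 4 compared liver X receptor targets and partners, Abca1, the cholesterol exporter, differed by -0.41 (8.30 and 7.89), Nr1h2 by 0.30, Lpcat3 by 0.10 and Abcg1 by -0.06.

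Receptors were near the all-gene median, at -0.07 over 18 genes, and this median was above 0 after centring on the median. Adcyap1r1, the PACAP receptor, read 8.04 and 7.49 (-0.54), Gpr39 7.13 and 6.65 (-0.48) and Glp1r differed by -0.40. Ffar2, a short-chain fatty acid receptor, read higher (5.55 and 6.06, 0.51), and Ffar1, the long-chain one, 9.23 and 9.31 (0.08).

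Genes of growth and stress signals showed small, divided differences. Immediate-early genes had a median of -0.04 over 19 genes, which cyclic loess and centring on the median turned above 0, with Atf3 at 0.49 (4.78 and 5.27), Nr4a2 at -0.45 (5.30 and 4.85), Arc at -0.45 and Jund at -0.42. Fos was at control level (3.18 and 3.45), Egr1 read 5.48 and 5.39, Nr4a1 6.80 and 6.81 and Rgs2 5.17 and 5.06. MAP kinase feedback genes had a median of -0.06 over 18, above 0 after cyclic loess or centring on the median. The phosphatases Dusp7 (6.88 and 6.24, -0.64), Dusp8 (7.65 and 7.10, -0.55) and Dusp5 (7.66 and 7.28, -0.38) and the Raf inhibitor Spred2 (-0.31) read lower. CREB targets had a median of -0.14 over 18, with Pde4d at -0.55 (6.74 and 6.19), Sik1, a salt-inducible kinase, at -0.52 (6.59 and 6.07) and the small GTPase Gem at 0.43 (5.64 and 6.06). Actin and serum response genes gave -0.12 over 8, with Vcl at -0.34, Actn1 at -0.21, Tagln2 at 0.21 and Actb at -0.17.

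Circadian genes read lower in 15 of 16 cases, with a median of -0.20. Cry1, a repressor of the clock, read 5.2 and 4.58 (-0.62), and the output factors Tef (6.55 and 6.12, -0.43) and Dbp (8.44 and 8.02, -0.42) read lower as well. Nfil3, which opposes Dbp at the same DNA element, was the 1 higher gene, at 5.61 and 6.01 (0.40). Nr1d1 hardly differed, at 5.73 and 5.72, and Per1 differed by -0.18. Heat shock genes read lower in 13 of 14 cases, with a median of -0.11. That median was -0.03 after centring on the median of all genes and -0.13 after centring on gene span. Bag3, a co-chaperone, read 7.19 and 6.62 (-0.57), Hsf2 8.21 and 7.86 (-0.35), Dnajb4 7.27 and 6.95 (-0.31) and Hspa4 10.27 and 9.98 (-0.29).

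Classes on the higher side included the amino acid response and the respiratory chain. Of 20 compared ATF4 targets and amino acid response genes 14 were higher, with a median of 0.17. The cystine transporter Slc7a11 (4.19 and 4.84, 0.64) and the neutral amino acid transporter Slc1a4 (5.87 and 6.47, 0.60) were past 1.5-fold. Slc7a11 was below the controls' 75th percentile at 2 h and passed the filter only through its 16 h signal. Atf4 itself read 8.76 and 9.14 (0.38), Ddit4, an inhibitor of mTORC1, 5.03 and 5.47 (0.44) and Ddit3 (CHOP) 5.76 and 6.09 (0.33). Asns, asparagine synthetase, read 8.11 and 8.15, and Trib3 was below the filter (4.04 and 4.74). The cytosolic aminoacyl-tRNA synthetases, some of which ATF4 also drives, had a median of -0.07 over 18, which centring on gene span put above 0, with Cars1 at 0.30 (7.78 and 8.08), Vars1 at -0.40, Kars1 at -0.34 and Qars1 at -0.28.

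Nuclear-encoded subunits of oxidative phosphorylation read higher in 28 of 40 cases, with a median of 0.12. Cox7a2 (10.50 and 11.09, 0.59) was past 1.5-fold, and Cox7b (8.23 and 8.71, 0.48), Sdhc (8.34 and 8.73, 0.39) and Sdhd (8.09 and 8.45, 0.36) followed. Proteasome subunits read higher in 20 of 31 cases with a median of 0.05, led by Psmd8 (8.17 and 8.61, 0.44), Psmd13 (0.41), Psma5 (0.36) and Psmb6 (0.34). Ribosomal protein genes had a median of 0.04 over 48, with Rpl11 at -0.42 (11.16 and 10.75), Rpl23 at -0.34, Rpl13 at 0.28 and Rpl5 at -0.27. Ribosome biogenesis factors went lower in 21 of 29 cases (median -0.10), beside 62.4% lower over all compared genes. Their median was -0.02 after centring on the median of all genes and -0.07 after centring on gene span. Among them were Nolc1 at -0.56 (7.84 and 7.28), Utp20 at -0.48, Ddx21 at -0.41 and Polr1c at 0.51 (6.84 and 7.35).

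Endoplasmic reticulum chaperones and unfolded protein response genes divided evenly, 16 higher and 16 lower. Syvn1, a ubiquitin ligase of the degradation pathway, differed by -0.43 (7.71 and 7.28) and Crebrf by -0.38, while Sdf2l1 differed by 0.41 (7.15 and 7.56) and Dnajb9 by 0.30. Proliferation genes were bright, with 25 of 32 replication genes and 31 of 34 mitosis genes above controls. Their medians were -0.01 and -0.03, and both turned above 0 after cyclic loess or either centring. Within mitosis genes, Cdk1, the kinase of mitotic entry, read 8.55 and 9.14 (0.59) and Cenpa, the centromeric histone, 4.8 and 5.38 (0.58), but Ccna2 (8.24 and 7.76, -0.48) and Mki67 (8.98 and 8.54, -0.44) read lower. In replication, Gins1 (0.43), Rfc3 (0.41) and Rfc2 (0.29) were higher and Chaf1a (-0.40) lower. G1 regulators gave 0.03 over 14, and -0.03 with the stricter filter, with the kinase inhibitors Cdkn2d (0.39), Cdkn2b (0.35) and Cdkn1b (0.17) higher and Rbl2 at -0.25. Ccnd1 was at control level (3.90 and 3.77). p53 targets gave -0.10 over 16, and 0.01 after centring on gene span, with Btg2 at 0.41 (7.81 and 8.22), Plk3 at -0.32, Ei24 at 0.31 and Plk2 at -0.30.

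The remaining classes were small or divided. HIF targets and glycolysis genes gave -0.06 over 27, above 0 after either centring, with the oxygen sensors Egln3 (5.58 and 4.85, -0.73) and Egln1 (5.69 and 5.10, -0.59) past 1.5-fold and Pfkfb4 at -0.39. Antioxidant genes gave 0.07 over 20, with Mt2A at 0.33, Tkt at -0.28 and Gpx4 at 0.22 beside Slc7a11. Lysosome and autophagy genes gave 0.03 over 29, with Ulk1, the kinase that starts autophagy, at -0.74 (6.48 and 5.74), Gla at 0.42, Gabarapl1 at 0.36 and Uvrag at -0.34. Insulin, IGF and FOXO genes gave -0.14 over 22, and 0.01 after centring on gene span, with Ccng2, a FOXO target, at 0.53 (6.81 and 7.34), the insulin receptor Insr at -0.46 (5.45 and 5.0) and Tsc2 at -0.37. NF-kappaB targets gave 0.18 over 10, led by Nfkb2 (6.47 and 7.03, 0.56), Cxcl10 (5.09 and 5.63, 0.54), Cd83 (0.44) and Cxcl1 (0.35). Interferon-stimulated genes gave 0.24 over 7 compared genes of 21. This was the highest class median as reported, but not without the filter (0.12, against 0.16 for ATF4 targets) or after centring on gene span (0.19, against 0.25 for Notch genes). Psmb8 (0.42), Tap1 (0.28), Psmb9 (0.26) and Bst2 (0.24) serve antigen presentation or viral restriction. Notch genes gave 0.16 over 9, with Notch3 (4.30 and 5.04, 0.74), Hes6 (0.32), Rbpj (0.27) and Jag2 (-0.27). Notch3 here and Cxcl1 among the NF-kappaB targets passed the filter only through their 16 h signal. TGF-beta, BMP and Id genes gave -0.15 over 9, and 0.02 without the filter, with Ski at -0.49, Id4 at -0.45, Id3 at 0.23 and Smad2 at 0.17. Housekeeping genes gave -0.03 over 18, above 0 after centring on the median, and ranged from -0.24 (Hprt1) to 0.15 (Rplp0).

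The difference varied with the length of the gene. Gene span, the distance from start to end in RefSeq (GRCr8), was known for 9131 compared genes, which were split into 10 groups of equal size by span. The median difference went from 0.05 in the shortest group (median span 2798 bases) to -0.20 in the longest (median span 197621 bases). In the shortest group 57.1% of genes read higher at 16 h, and in the longest 21.4%. At 1.5-fold, 13 genes were higher and 8 lower in the shortest group, against 2 and 37 in the longest. Across genes, which are not independent replicates and share both arrays, Spearman's rho of span with difference was -0.31, while mean signal gave 0.05. Among classes with low medians, some hold long genes and some do not. Median spans were 165160 bases for ion channel genes, 57994 for fatty acid synthesis and 50423 for exocytosis. They were shorter for circadian genes (25524), beta-cell factors (21738), carbohydrate-response genes (11952) and heat shock genes (10818), whose medians were also low. On the higher side, spans were 8745 bases for oxidative phosphorylation and 3277 for ribosomal proteins. After centring each gene on the median of its span group, an alternative chosen after seeing the data, the medians were -0.12 for ion channels, -0.15 for fatty acid synthesis, -0.09 for exocytosis, -0.11 for beta-cell factors, -0.15 for circadian genes and -0.18 for carbohydrate-response genes. Oxidative phosphorylation stood at 0.13 and ATF4 targets at 0.20. What links span and difference was not tested.

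**Figure D4:**
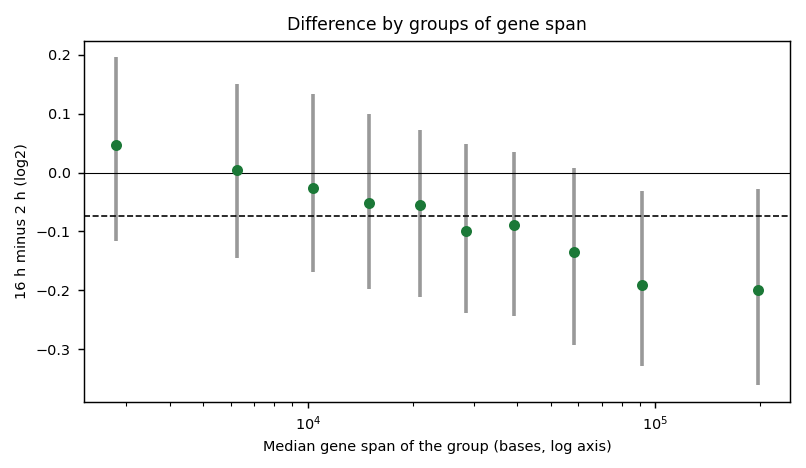
Median difference 16 h minus 2 h (y axis, log2, points) with quartiles over genes (bars) for the 10 groups of gene span (x axis, median span in bases, log axis). The dashed line is the median of all compared genes. Medians go from 0.05 in the shortest group to -0.20 in the longest.

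Histone genes, gathered by symbol after their values had been seen, read higher at 16 h in 25 of 28 compared cases, with a median of 0.19. The main core histones are made in S phase from short genes whose mRNAs end without a poly(A) tail. When H1f0, H1f10, H2aj, H2ax, H2az1, H2az2 and H3f3b, which lie outside the main histone clusters, were set aside, all 21 others were higher, from 0.01 to 0.84 with a median of 0.28. Beside Hist1h2af and Hist1h4b, H2ac20 read 10.58 and 11.25 (0.67), H4c14 9.72 and 10.37 (0.65) and H2ac1 4.64 and 5.28 (0.63). Hist1h4b has 6 probe sets, and each read higher at 16 h, by 0.40 to 0.82, but the probe set at 0.40 was at control level (3.43 and 3.84). The variant genes differed less, with H3f3b at -0.04 (11.79 and 11.75), H2ax at -0.13 and H2az1 at 0.16. Histone copies are nearly identical, so one signal may come from several genes, and all of the 21 were selected by name from a family already seen to be high.

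Transcripts of the mitochondrial genome read higher as well. Of 9 protein-coding probe sets 8 were higher, with a median of 0.26: COX1 by 0.26, COX2 by 0.32, ND4L by 0.33, ND2 by 0.37 (10.25 and 10.62) and ND6 by 0.61 (9.73 and 10.33). ATP8 has 2 probe sets that disagreed, at 0.21 (12.03 and 12.23) and -0.70 (11.14 and 10.44). The number of the lower one lies among those of complement-strand tRNAs, so the 2 may not read the same strand, which was not tested. The 3 probe sets of the 12S and 16S ribosomal RNAs differed by 0.33 to 0.55. Among transfer RNAs on the forward strand, 7 of 9 compared read higher, with a median of 0.24. On the complement strand 2 of 5 were higher, with tRNA-Ser at 0.51 and tRNA-Glu at 0.10, and tRNA-Tyr (-0.72), tRNA-Gln (-0.60) and tRNA-Pro (-0.37) were lower.

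**Figure D5:**
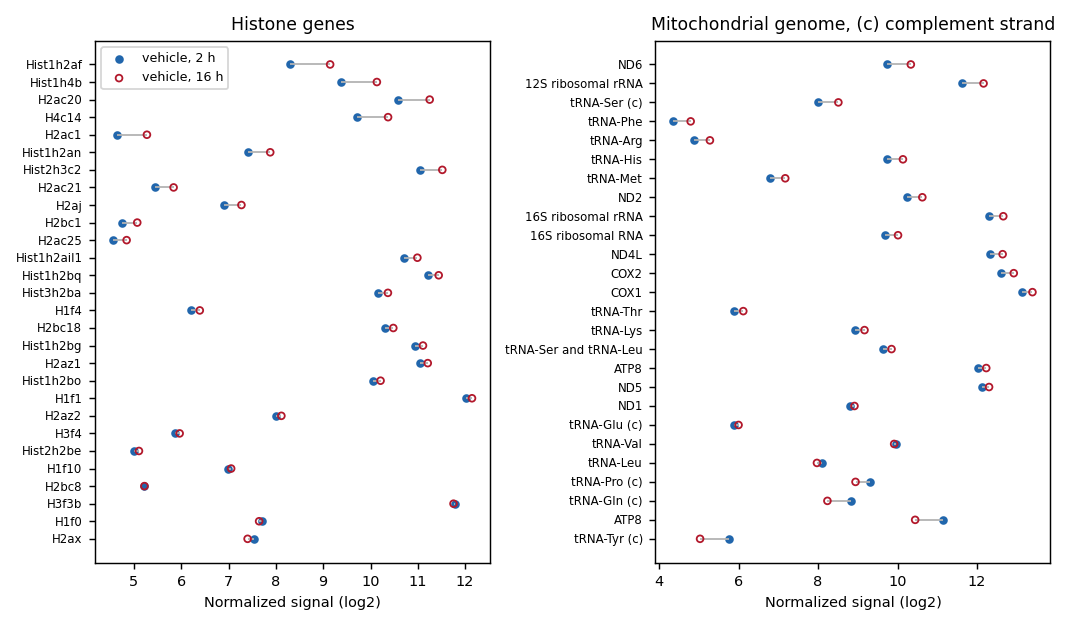
Normalized log2 signal (x axis) at 2 h (filled) and 16 h (open) for the 28 compared histone genes (left) and the 26 compared probe sets of the mitochondrial genome (right), ordered by difference, with (c) for tRNAs of the complement strand. Histone genes read higher at 16 h in 25 of 28 cases and mitochondrial protein-coding probe sets in 8 of 9.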

How the data were processed

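Total RNA of the vehicle samples was hybridized by the authors to Affymetrix rat gene 1.0 ST arrays, 1 array per time point (2 h and 16 h). Per the file headers the deposited log2 values are gene-level RMA signals, made with Affymetrix Expression Console 1.1.1 per the submitters' processing notes. That method subtracts background, gives all arrays the same distribution and combines the probes of each probe set, so a shift common to all genes is removed before deposit. How many arrays were normalized together is not given in the sources used here. The deposited value table and the log2 columns differed by at most 5e-05. A linear-scale copy of the data was not used.

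Probe sets were named by deposited accession, symbol or synonym through RefSeq gene tables (GRCr8): 14570 by accession, 2834 by symbol and 1127 by synonym. A further 1880 kept the deposited symbol, 213 without one were named by accession, and 8590 had no name. The brightest of several probe sets stood for a gene, which 1048 genes needed. Levels were set against the 1153 negative controls. Differences are 16 h minus 2 h in log2 units for 9626 genes with a mean above 4.455. Calls are by size, at least 2-fold or 1.5-fold, with no p-value, because there is 1 array a side and nothing in the labels gives further cultures. The number of arrays limits the precision. Alternatives used other filters, other percentiles, the mean of probe sets, centring and a cyclic loess (limma 3.58.1, R 4.3.3). The counting and the loess were tested on simulated data. Changes were simulated only in brighter genes, with the same noise at every signal, so calls among dim genes were not tested. Named genes were the 20 brightest, the 15 highest and 15 lowest differences, up to 4 members of each class with the largest differences, all lineage markers, and a fixed set of islet and signalling genes. Of 1017 list genes, 31 were not analysed here. The gene lists, classes and rules were chosen with earlier results of these data known, and the histone and mitochondrial sets after these values were seen. Some genes that these rules name are not reported here.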

Additional observations from a re-analysis of the deposited data

How the results depend on the processing

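No paired analysis was possible because each time point has 1 vehicle array, and no replicate could be left out. The 8 genes at least 2-fold higher became 14 without a filter on low signal, 0 with the stricter filter on the controls' 95th percentile, 5 with the mean of probe sets and 69 at 1.5-fold. The 3 genes at least 2-fold lower became 5 without a filter, 1 (Unc5a) with the stricter filter, 0 after cyclic loess, 0 after centring on the median and 217 at 1.5-fold. Centring on the 10 groups of gene span, added after seeing the data, left 2 higher (Fancd2osl1 and Gtf2f2) and 0 lower; 7 of the 8 higher genes have no span in RefSeq and dropped out by construction. At 1.5-fold that centring gave 85 higher and 94 lower. With deposited symbols only, also added later, the 8 and 3 genes were the same genes. Genes above controls numbered 7138 at the controls' 90th percentile and 630 at the 99th, against 4844 as reported, and 17 of the 20 brightest genes were shared when probe sets were averaged. The number of classes with a median below 0 ranged from 16 to 24 over all alternatives, and the sign of the median differed for at most 8 classes in any of them. The stricter filter turned the sign for immediate-early genes, G1 regulators, p53 targets, ER chaperones and insulin, IGF and FOXO genes. The 11 genes past 2-fold kept their direction in every alternative that measured them. All alternatives reuse the same 2 arrays and shift values little beside a 2-fold difference, so this is no check of the direction. Array signal near the negative controls limits the dim genes most, since 276 of 1153 negative controls themselves passed the filter.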

Other observations

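Several kinds of small or structural RNA probe set without a gene name stood higher at 16 h, and others did not. Probe sets with identical values were counted as 1. Over all compared genes 37.4% read higher at 16 h, and 0.717% were at least 1.5-fold higher. Of 12 distinct nuclear ribosomal RNA probe sets above the filter, 11 read higher at 16 h, with a median difference of 0.67, and 7 were past 1.5-fold. One group of 5 probe sets shared identical values of 6.0 and 7.30 and is annotated at chr12:13924-14041 (RGSC3.4). The 16 distinct small nuclear RNA probe sets gave a median of 0.33 and the 66 microRNA precursors 0.26, while 127 small nucleolar RNAs gave 0.04, with 70 higher, and 13 other noncoding RNAs 0.01, with 7 higher. For 350 pseudogene probe sets the median was 0.13, with 243 of them higher. Negative controls above the filter had a median of 0.12 themselves. Of these 276 controls 159 read higher, and 46 were past 1.5-fold upward and 41 downward. The part of signal level, and of transcript length, was not tested.

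Unnamed transcripts past 2-fold were few. Of 777 distinct Ensembl transcripts without a symbol above the filter, 4 were past 2-fold upward and 1 downward, the latter at chr5:160360774-160431620 (RGSC3.4), which read 6.33 and 5.13. The brightest of the higher ones, at chr1:48014398-48014843, read 8.61 and 9.73.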
